A study of Danio rerio with 2 samples.

Results

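The genes described here build the axoneme, the microtubule skeleton of a motile cilium, and were followed in the sensory hair cells (HCs) of zebrafish larvae. They were chosen by symbol alone, ignoring case, as every deposited gene whose name begins with dnah, dnai, dnal, dnaaf, rsph, tekt, drc, cfap, ccdc39, ccdc40 or odad. The rule found 63 of 32059 features under 61 distinct symbols, since *dnah11* and *dnal1* each name 2 features, which are told apart below by their Ensembl identifiers. By family they were 13 dynein heavy chains, 9 dynein intermediate and light chains, 5 dynein assembly factors, the 2 ruler genes *CCDC39* and *ccdc40*, 2 genes of the nexin-dynein regulatory complex, 6 radial spoke genes, 4 tektins and 22 cilia and flagella associated (cfap) genes. The rule matched no odad symbol.

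A motile axoneme is a ring of doublet microtubules around a central pair. Outer and inner dynein arms, motors built from heavy, intermediate and light chains, are assembled in the cytoplasm with the help of assembly factors and slide neighbouring doublets past each other. Radial spokes and the nexin-dynein regulatory complex control that sliding, a ruler of Ccdc39 and Ccdc40 sets the spacing of these parts along the doublet, and tektins and several cfap proteins line the inside of the doublet wall. Each zebrafish HC carries 1 true cilium, the kinocilium, beside its actin-based stereocilia, and Foxj1 and Rfx factors are the known regulators of motile cilia genes.

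The series holds 2 single-cell libraries, both of cells sorted for green fluorescence from 4 dpf larvae that carry the reporter *Tg(Brn3c:mGFP)*, 1 labelled wild-type control and 1 labelled *hsd17b7* mutant, with no treatment in either. The *Brn3c* (*pou4f3*) promoter drives the reporter in HCs and also in retinal ganglion cells. The number of larvae pooled is not given in the sources used here, and the study describes the mutation as a small CRISPR/Cas9 deletion. Unique molecular identifiers (UMIs), 1 per captured transcript 3′ end, were counted per gene and cell barcode. The control library held 180590990 UMIs in 19270 barcodes and the mutant library 81920586 in 10119, of which 17385 and 8322 passed the limits of 500 detected genes and of 20% UMIs from mitochondrial genes. They shared 49 barcode sequences, of which 1 was called a HC in both.

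Classes were gates on marker genes and not clusters. HCs held at least 3 UMIs of *myo6b*, an unconventional myosin of HCs, and were called inner ear (IEHCs) where *lhfpl5a* exceeded *lhfpl5b* and lateral line (LLHCs) where *lhfpl5b* exceeded *lhfpl5a*. The other barcodes were supporting cells (SCs) at 1000 or more *stm* UMIs per 1000000, neurons with at least 1 *elavl3* UMI, or the rest. This gave 846 IEHCs, 101 LLHCs, 695 SCs, 3706 neurons and 12037 rest barcodes in the control, and 773, 65, 305, 3848 and 3331 in the mutant library. A further 467 and 347 barcodes reached the *myo6b* gate without an *lhfpl5* call, of which 355 and 274 stood in the rest. Another 250 and 181 barcodes passed more than 1 gate and were kept as HCs first, then as SCs. Sums of UMIs over each class and library are given as counts per 1000000 UMIs (CPM), which for 3′ tags carry no length term. Levels given as outside HCs or elsewhere are sums over all SCs, neurons or rest barcodes, unless a part of the rest is named.

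Other markers followed the HC and neuron gates but not fully the SC gate. A list of 20 HC genes outside the gate, *otofb* among them, summed to 15008 CPM (control) and 22974 CPM (mutant) in IEHCs and to 26510 and 36713 CPM in LLHCs. It summed to 672 and 843 CPM in SCs, 548 and 830 CPM in neurons, and 379 and 1084 CPM in the rest. Single genes differed from the sum, as *pou4f3* in neurons was at 125% and 123% of its IEHC level and *tmc2a* in LLHCs at 5.0% and 4.62%. The list of 9 neuron genes summed to 4071 and 5818 CPM in neurons and to at most 507 CPM in every other class. The list of 11 SC genes summed to 2149 and 5350 CPM in SCs but also to 2872 and 5249 CPM in IEHCs, where *si:ch211-243g18.2* alone gave 2307 and 4713 CPM. Globin and *alas2* UMIs were 176771 CPM in the control rest and 21823 CPM in control IEHCs, against 47.8 and 5.45 CPM in the mutant library. The targeted gene itself, *hsd17b7*, had 167 CPM in IEHCs of the control and 281 CPM in those of the mutant library, with 105 and 154 CPM in LLHCs. A 3′ tag away from an edited site does not check the genotype, so the libraries are called by their labels.

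Axoneme transcripts were concentrated in HCs. The 63 genes together summed to 3253 CPM (counting interval 3223 to 3282) in control and 3591 CPM (3556 to 3626) in mutant IEHCs, and to 2503 and 2666 CPM in LLHCs. The same sum was 389 and 231 CPM in SCs, 309 and 236 CPM in neurons, and 298 and 334 CPM in the rest. On the log2 scale IEHCs exceeded SCs by 3.06 in the control and 3.96 for the mutant library, and neurons by 3.39 and 3.93. Intervals here and below are exact 95% Poisson or binomial intervals and cover counting error only, not differences between larvae.

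The difference was also seen barcode by barcode. When every barcode was thinned to 4000 UMIs, so that depth was equal, the median number of axoneme UMIs was 14 and 15 per IEHC and 10 and 11 per LLHC in the control and mutant library, against 1 in SCs, 1 in neurons and 0 in the rest of both. At least 5 axoneme UMIs were found in 94.5% and 96.1% of IEHCs and in 80.4% and 80.6% of LLHCs, while 2.17% and 6.45% of LLHCs held 0. The share with at least 5 was 7.23% and 1.95% in SCs, 2.34% and 2.02% in neurons and 4.38% and 8.0% in the rest. Thinning left out 4 and 9 IEHCs, 9 and 3 LLHCs, 142 and 49 SCs, 416 and 885 neurons, and 2543 and 1081 rest barcodes that were shallower. Unthinned, the median IEHC had UMIs of 22 and 23 different members at a median depth of 14947 and 13204 UMIs, and the median neuron had 2 and 1 at 7065 and 5470 UMIs.

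**Figure D1:**
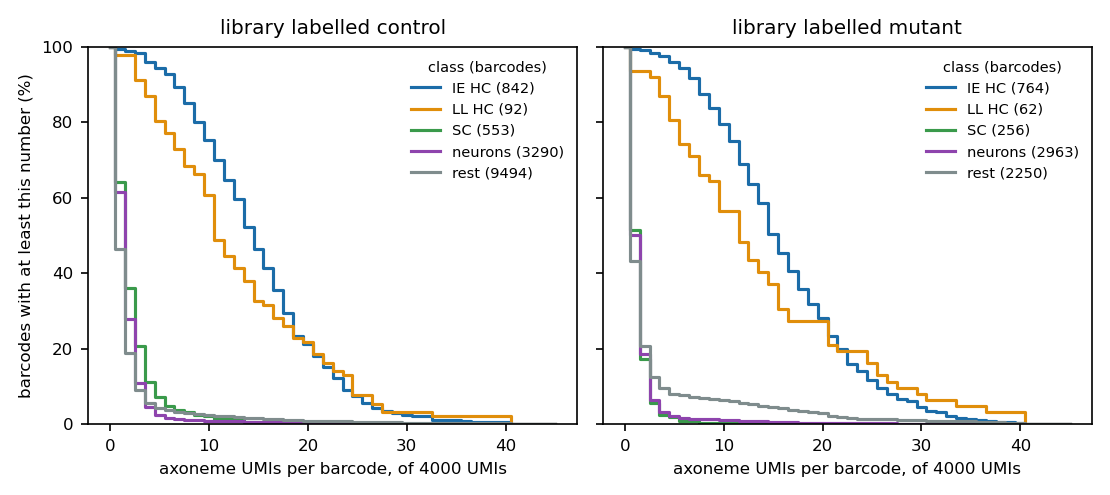
Share of barcodes (%, vertical axis) that hold at least the number of axoneme UMIs on the horizontal axis, after thinning each barcode to 4000 UMIs, for 5 classes in the control (left) and mutant (right) library, with the number of barcodes in brackets. The curves of IEHCs, with medians of 14 and 15, and of LLHCs, with medians of 10 and 11, lie to the right of SCs, neurons and the rest.

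Gene by gene, 51 of the 61 members that passed the filter on low counts were higher in IEHCs than in SCs, in neurons and in the rest, each at an adjusted p under 0.05 (edgeR quasi-likelihood test on class sums with library as a block). Of all 21748 genes tested, 6.41% met the same criterion. In LLHCs 43 of 61 members did, against 3.21% of all genes. The libraries serve as the replicates of a class difference and differ in genotype, so p-values measure the spread of class differences between them. The members left out by the filter were *cfap73* and *dnal1* (ENSDARG00000097505), both at 0.70 CPM or less in IEHCs, and the counts stayed at 51 and 43 when no filter was used. The median log2 difference of the tested members from IEHCs to SCs was 3.63, to neurons 4.27 and to the rest 3.28, beside 0.01, -0.07 and -0.08 for all genes. Scaling by class totals alone moved the all-gene median of IEHCs over the rest to 0.22, and of IEHCs over neurons to -0.25, with the same 51 and 43 as counts.

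**Figure D2:**
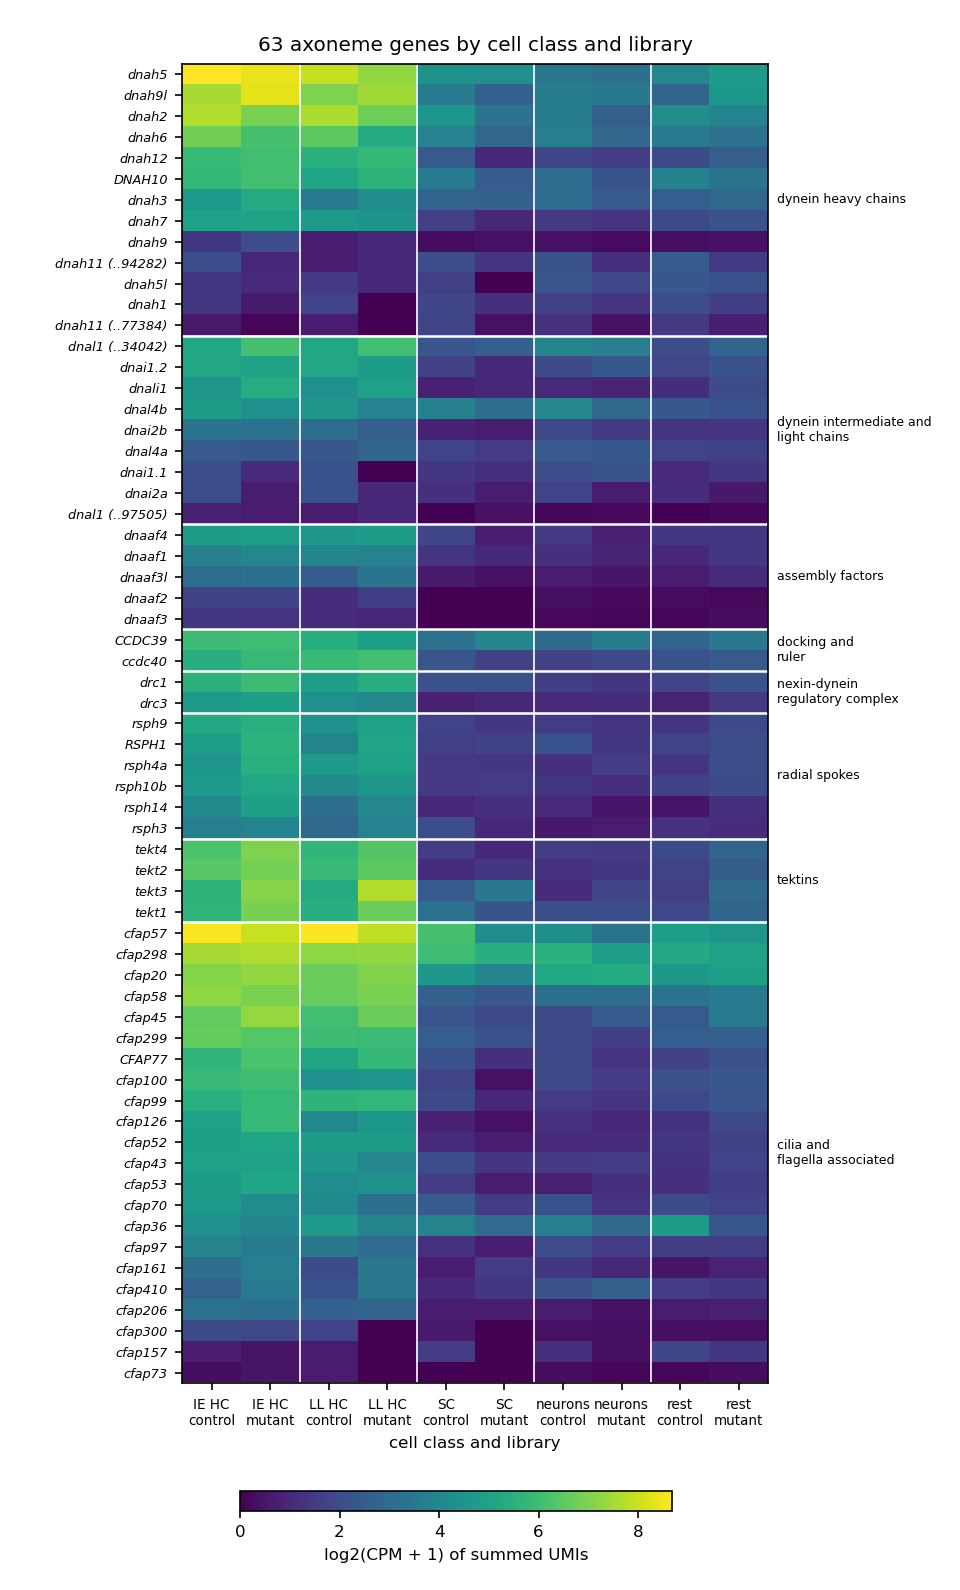
Level of each of the 63 axoneme genes (rows, grouped by family, ordered by mean level in IEHCs) in each class and library (columns), as log2(CPM + 1) of summed UMIs, with the last 5 digits of the identifier where a symbol names 2 features. The 4 left columns (HCs) are bright for most rows. Rows dark there include *dnah5l*, *dnah1*, *cfap157*, both *dnah11* features, *dnai1.1*, *dnai2a*, *dnah9*, *dnaaf2*, *dnaaf3*, *cfap73* and *dnal1* (ENSDARG00000097505).

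Among outer arm heavy chains, *dnah5* was the member with the highest mean level in IEHCs. Its level was 409 CPM (398 to 419) in control and 334 CPM (323 to 345) in mutant IEHCs and 241 and 155 CPM in LLHCs. SCs had 20.7 and 19.3 CPM, neurons 10.1 and 8.12 CPM, and the rest 15.1 and 25.8 CPM, so that both HC classes lay above every other class in each library. The fitted log2 difference from IEHCs to neurons was 5.53 ± 0.38 (SE; adjusted p = 1.1e-05) and to the rest 3.89 ± 0.35 (adjusted p = 7.1e-05). UMIs of *dnah5* were found in 95.5% of control and 91.7% of mutant IEHCs, and in 4.56% and 2.39% of neurons, which had a lower depth. The other highly expressed outer arm heavy chain was *dnah9l*, at 184 and 320 CPM in IEHCs, 128 and 173 CPM in LLHCs and at most 23.6 CPM in the other classes of either library.

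Of the inner arm heavy chains, *dnah2*, a chain of the double-headed inner arm, was at 204 and 122 CPM in IEHCs, 193 and 108 CPM in LLHCs, and between 5.12 and 22.4 CPM elsewhere. The single-headed chain *dnah6* was at 112 and 70.1 CPM in IEHCs and 89.8 and 39.7 CPM in LLHCs, against 6.30 to 13.4 CPM elsewhere. The heavy chains *DNAH10*, *dnah12*, *dnah7* and *dnah3* lay between 24.4 and 67.2 CPM in IEHCs, and *dnah3* was not called in LLHCs, at 11.3 and 18.3 CPM against 4.67 to 7.13 CPM elsewhere. In all, 9 of 13 heavy chains were called in IEHCs and 7 of 13 in LLHCs.

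The intermediate and light chains split in the same way. *dnai1.2*, which encodes an outer arm intermediate chain, was at 35.7 and 31.4 CPM in IEHCs and at most 4.25 CPM outside HCs. The light chain gene *dnal1* (ENSDARG00000034042) was at 35.8 and 68.7 CPM in IEHCs, and *dnali1*, a light intermediate chain of the inner arms, at 23.3 and 40.1 CPM. Neurons also held this *dnal1* feature, at 14.3 and 12.2 CPM. *dnal4b*, called in IEHCs but not in LLHCs, was at 27.1 and 19.4 CPM in IEHCs against 15.1 and 6.72 CPM in neurons. Of 8 tested chains, 5 were called in IEHCs and 4 in LLHCs, and *dnal4a*, *dnai2a* and *dnai1.1* were called in neither.

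The 5 assembly factors were low in level but concentrated in HCs. *dnaaf4* was at 26.8 and 28.4 CPM in IEHCs and *dnaaf1* at 12.6 and 15.3 CPM, with at most 2.55 CPM outside HCs for either. *dnaaf2* (2.23 and 2.18 CPM) and *dnaaf3* (1.67 and 1.55 CPM) had 0 UMIs in SCs of both libraries. Read as up to 3 UMIs, this allows up to 0.318 CPM in the control and 0.95 CPM for the mutant library. The upper ends of the exact intervals were 0.391 and 1.17 CPM. All 5 were called in IEHCs and 3 in LLHCs, where *dnaaf2* and *dnaaf3* were represented by 2 UMIs in the control library. *cfap298*, known in zebrafish as *kurly* and needed there for dynein arm assembly, was far more abundant, at 183 and 199.9 CPM in IEHCs and 145 and 153 CPM in LLHCs, with 62.4 and 43.4 CPM in SCs.

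The parts that space and regulate the arms were all called in IEHCs. *CCDC39* was at 60.7 and 62.8 CPM and *ccdc40* at 43.3 and 55.5 CPM in IEHCs, and the regulatory complex genes *drc1* and *drc3* at 47.1 and 60.5 CPM and at 25.5 and 29.3 CPM. All 4 were called in both HC classes. The 6 radial spoke genes lay between 12.2 CPM (*rsph3*, control) and 47.9 CPM (*RSPH1*, mutant) in IEHCs. All 6 were called in IEHCs and 5 in LLHCs, where *rsph3* was at 6.54 and 13.2 CPM against 3.29 and 0.95 CPM in SCs (adjusted p = 0.088).

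Tektins, filament proteins of the doublet, showed large differences between HCs and the other classes, and all 4 were called in both HC classes. *tekt2* was at 84.6 and 117 CPM in IEHCs and 56.5 and 89.6 CPM in LLHCs, against 1.17 to 4.92 CPM elsewhere. Its log2 difference from IEHCs to SCs was 6.09 ± 0.38 (SE; adjusted p = 2.3e-05) and to neurons 6.22 ± 0.35 (adjusted p = 7.3e-06). *tekt4* was at 74.4 and 127 CPM, *tekt1* at 50.1 and 120 CPM and *tekt3* at 49.2 and 135 CPM in IEHCs. For each of the 4, every HC level lay above every level in SCs, neurons and the rest as whole classes. In the *foxj1*-positive rest barcodes described below, *tekt1* was at 8.53 and 54.2 CPM and *tekt4* at 18.5 and 66.7 CPM. Their mutant levels there were above *tekt1* in control IEHCs and above *tekt4* in control LLHCs (51.1 CPM).

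Of the cfap genes, 18 of 21 tested were called in IEHCs and 16 in LLHCs. *cfap57*, known in other organisms from the assembly of inner dynein arms, was at 389.8 and 245 CPM in IEHCs and 398 and 232 CPM in LLHCs, which made it the member with the highest mean level in LLHCs. It was also present at 70.9 CPM in control SCs, against 18.0 CPM in mutant SCs. *cfap58* was at 150.1 and 120.4 CPM and *cfap299* at 97.4 and 83.7 CPM in IEHCs. *cfap20* and *cfap45*, known as proteins inside the doublet, were at 132 and 152 CPM and at 95.8 and 156 CPM. *cfap36* was the member with at least 10 CPM in IEHCs of both libraries that was called in neither HC class, at 19.7 and 14.4 CPM in IEHCs against 25.4 and 4.18 CPM in the rest.

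The rest included barcodes with *myo6b*, and these carried 30.7% of its axoneme UMIs in the control and 58.7% for the mutant library. Without barcodes that hold a *myo6b* UMI in SCs, neurons and the rest, an alternative chosen after seeing the data, 51 members were called in IEHCs and 44 in LLHCs. The share of all genes that met the criterion in this alternative is not given, so these counts have no reference of their own.

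A smaller set of members was not called higher in IEHCs than in all 3 other classes. The 10 tested members not called in IEHCs were *dnah1*, *dnah5l*, both *dnah11* features, *dnai1.1*, *dnai2a*, *dnal4a*, *cfap36*, *cfap157* and *cfap410*. Of these, *cfap157*, *dnah1*, *dnah5l* and *dnah11* (ENSDARG00000077384) were lower in IEHCs than in the rest (edgeR adjusted p from 0.012 to 0.037), 4 of 61 members beside 21.2% of all genes. In LLHCs 1 of 61 members was called lower than in the rest, beside 12.6% of all genes, *dnah11* (ENSDARG00000094282) (edgeR adjusted p = 0.045). That call rested on 1 UMI in LLHCs of each library, at 0.59 and 1.02 CPM. DESeq2 called 0, and so did edgeR with no filter on low counts or with class totals as the scaling. *cfap157* stood at 0.63 and 0.36 CPM in IEHCs against 2.52 and 1.65 CPM in the rest, and *dnah5l* at 1.60 and 1.09 CPM against 4.14 and 3.60 CPM. *cfap410*, though not called, was higher in IEHCs than in each other class of both libraries outside HCs. It was at 5.63 and 11.0 CPM in IEHCs, 3.42 and 5.12 CPM in neurons and 0.96 and 1.58 CPM in SCs. The members below 1 CPM in both HC classes of both libraries were *cfap157*, *dnah11* (ENSDARG00000077384) and *cfap73*. Without the library block 0 members were called lower in IEHCs than in the rest, and 2 with class totals as the scaling.

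Some members in this set had a relative by name at a higher level in IEHCs. *dnah5* was at 409 and 334 CPM in IEHCs where *dnah5l* was at 1.60 and 1.09 CPM. *dnai1.2* was at 35.7 and 31.4 CPM and *dnai1.1* at 3.20 and 1.09 CPM. *dnai2b* was at 9.11 and 8.63 CPM and *dnai2a* at 3.27 and 0.64 CPM. *dnal4b* was at 27.1 and 19.4 CPM and *dnal4a* at 4.45 and 4.09 CPM. A similar gap lay outside this set, with *dnah9l* at 184 and 320 CPM and *dnah9* at 1.67 and 3.18 CPM, where *dnah9* was also higher in IEHCs than in the other classes (log2 difference from the rest 2.70 ± 0.56 SE, adjusted p = 0.0037). How reads were divided between close copies by the counting was not tested.

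Some members that were low in HCs stood higher in *foxj1*-positive barcodes outside them. In the rest, 644 control and 114 mutant barcodes held at least 1 UMI of *foxj1a* or *foxj1b* and 0 of *myo6b*, a group defined after seeing the data and therefore described without a test. Its axoneme genes summed to 1282 and 1926 CPM, at a median depth of 9209 and 9250 UMIs, and 35 members reached 10 CPM in both libraries. *dnah5l* was at 35.8 and 71.7 CPM there, *dnah1* at 25.6 and 25.9 CPM, *cfap157* at 18.7 and 13.3 CPM, *dnah11* (ENSDARG00000094282) at 32.4 and 11.7 CPM and *dnah11* (ENSDARG00000077384) at 13.0 and 5.0 CPM. Each of these 5 was above its IEHC level in both libraries. *dnai1.1* was not, at 1.27 and 0.83 CPM against 3.20 and 1.09 CPM in IEHCs, and *dnai2a* was below its IEHC level in the control (0.64 against 3.27 CPM) and above it in the mutant library (4.17 against 0.64 CPM). *dnah9l* went the other way, with 9.67 and 32.5 CPM against 184 and 320 CPM in IEHCs, and *dnah5* had 68.3 and 64.2 CPM against 409 and 334 CPM. Rest barcodes with 0 *myo6b* UMIs and at least 5 axoneme UMIs of 4000 numbered 232 and 34. They were selected on axoneme UMIs, which summed to 3607 and 5971 CPM and made up 25.3% and 17.1% of those of the rest. IEHCs, not selected in this way, had 3253 and 3591 CPM. The genes that led these selected barcodes included *gfap*, *vim*, *her4.2* and *capsla* in the control and *capsla*, *smkr1*, *tppp3* and *meig1* in the mutant library. These names are examples, and *capsla* and *tppp3* are on the list of multiciliated cell markers used below. Others ahead of *tppp3* in the mutant library were *zgc:195356*, *si:ch211-137i24.10* (in 7 barcodes) and *pvalb5* (in 2). The lists overlapped further, with *gfap* (in 3 barcodes) and *vim* (in 10) also in that of the mutant library and *smkr1* in that of the control.

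**Figure D3:**
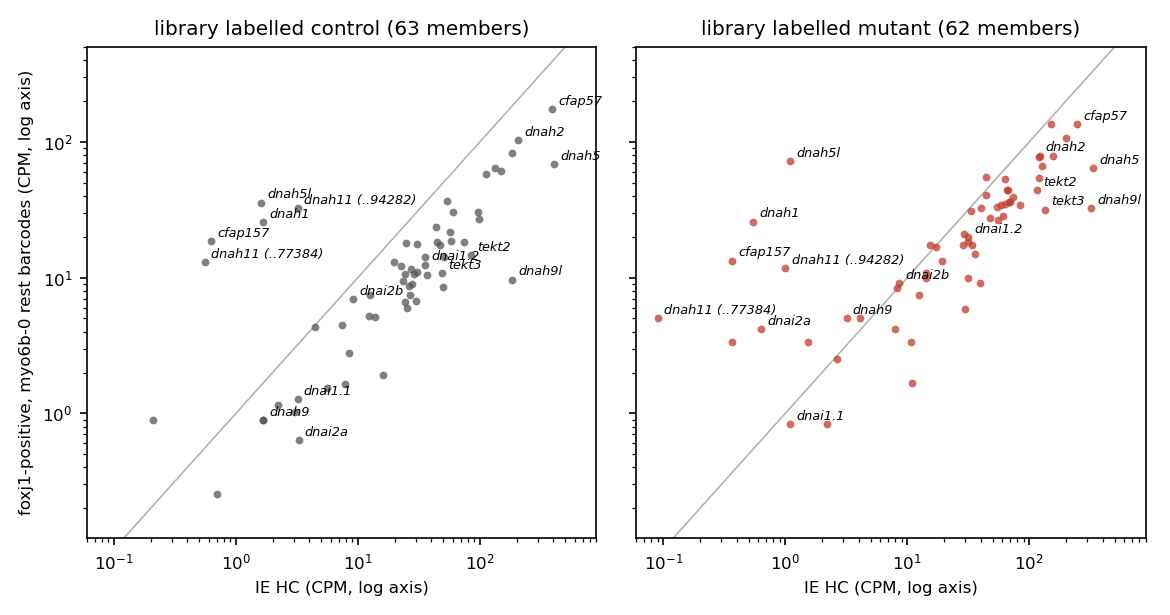
Level of each axoneme gene in IEHCs (horizontal) and in rest barcodes with *foxj1a* or *foxj1b* and 0 *myo6b* UMIs (vertical), both in CPM on log axes, in the control (left) and mutant (right) library, leaving out members at 0 in either; the line marks equal levels. Most members lie below the line, while *dnah5l* (1.60 against 35.8 CPM in the control), *dnah1*, *cfap157* and both *dnah11* features lie above it.

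No member was called different between IEHCs and LLHCs in the edgeR fit. By edgeR, 0 of 61 members were higher in IEHCs, beside 1.89% of all genes, and 0 were lower, beside 1.64%. Before adjustment 7 of 61 members had p under 0.05, all higher in IEHCs, beside 18.4% of all genes in either direction. DESeq2 called 1 of 61 higher, *cfap100* (adjusted p = 0.041), beside 3.27% of all genes. *cfap100*, known in the alga Chlamydomonas from a complex beside the inner arms, was at 57.3 and 63.1 CPM in IEHCs and 20.2 and 22.4 CPM in LLHCs, so that both IEHC levels stood above both LLHC levels. Its fitted log2 difference was 1.63 ± 0.45 (SE), with an adjusted p of 0.076. The fitted difference was above 0 for 56 of 61 members, beside 61.4% of all genes, with a median of 0.60 beside 0.23 for all genes. With class totals as the scaling it was above 0 for 51, with medians of 0.48 and 0.13. LLHCs were few, and their levels carry wider counting intervals, such as 131 to 181 CPM for *dnah5* in the mutant library.

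HCs were also compared by *atoh1a*, a transcription factor gene that is on in young HCs and falls as they mature. At least 1 *atoh1a* UMI was found in 548 control and 517 mutant IEHCs, while 298 and 256 had 0, and the LLHCs split into 62 and 45 against 39 and 20. The summed axoneme level was 3209 and 3514 CPM in *atoh1a*-positive and 3335 and 3757 CPM in *atoh1a*-0 IEHCs. In LLHCs it was 2416 and 2336 CPM against 2715 and 3744 CPM. The median log2 difference of the members, *atoh1a*-positive over *atoh1a*-0, was 0.12 in IEHCs, beside 0.09 for all genes, and -0.05 beside -0.06 with DESeq2 size factors. In LLHCs it was -0.11, beside 0.17 for all genes. There 34 of 61 members were below 0 and 27 above 0, beside 58.7% of all genes above 0.

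*tekt3* was the exception. It was at 16.7 CPM (14.2 to 19.5) in *atoh1a*-positive and 111 CPM (102 to 121) in *atoh1a*-0 IEHCs of the control, and at 58.2 CPM (52.9 to 63.9) and 303 CPM (285 to 321) in the mutant library. In LLHCs it was at 16.7 against 96.8 CPM and at 93.0 against 565 CPM. The *atoh1a*-0 level was thus above the *atoh1a*-positive level in both organs and both libraries. In IEHCs the log2 difference was -2.50 ± 0.34 (SE; edgeR adjusted p = 0.022), 1 of 61 members called lower beside 0.0246% of all genes. Called higher were 0 of 61 members, with 0 at an unadjusted p under 0.05 and 0 by DESeq2, beside 0.00492% of all genes. In LLHCs the difference for *tekt3* was -2.35 ± 0.36 (adjusted p = 0.078), so that 0 of 61 members were called, beside 0.00492% of all genes. There 7 of 61 members had an unadjusted p under 0.05, beside 7.17% of all genes, and DESeq2 called 0, with no adjusted p for *tekt3*. The difference between both organs in the *atoh1a* effect on *tekt3* was -0.15 ± 0.47, and 0 members had such an interaction at an adjusted p under 0.05, with 1 at an unadjusted p under 0.05 and 0 by DESeq2.

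The share of barcodes with a *tekt3* UMI followed the same order. UMIs were found in 8.21% (6.05% to 10.8%) of *atoh1a*-positive and 41.6% (36.0% to 47.4%) of *atoh1a*-0 IEHCs in the control and in 15.7% and 63.3% in the mutant library. The share in neurons, taken as a reference, was 0.54% and 0.88% at a median depth of 7065 and 5470 UMIs. After thinning to 4000 UMIs the IEHC shares were 4.40% and 25.6% in the control and 11.3% and 48.8% in the mutant library, in the same order, at median depths of 15030 and 14564 UMIs in the control and 13697 and 12072 UMIs in the mutant library before thinning. *tekt2*, for comparison, was found in 68.6% of *atoh1a*-positive and 65.1% of *atoh1a*-0 control IEHCs. Over the alternatives the adjusted p of the *tekt3* difference in IEHCs ran from 8.5e-10 (DESeq2) to 1 (no library block), and it was 0.15 without the 5% highest doublet scores of each library, where the difference itself was -2.60 ± 0.52. Without the block the difference was -2.36. With *atoh1a*-positive set at 2 UMIs or more, the difference was -3.85 in IEHCs (adjusted p = 0.0017) and -3.58 in LLHCs (adjusted p = 0.013). In LLHCs the difference was -1.95 after thinning (edgeR adjusted p = 0.30) and -2.65 without the highest doublet scores (edgeR adjusted p = 0.37). There *atoh1a*-positive barcodes were deeper, at a median of 17415 against 9440 UMIs in the control and 13927 against 10670 UMIs in the mutant library. The inner arm chain gene *dnah3* was the next in size in IEHCs among members above 10 CPM, at 16.0 against 40.3 CPM in the control and 25.1 against 71.7 CPM in the mutant library, with an adjusted p of 0.54.

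**Figure D4:**
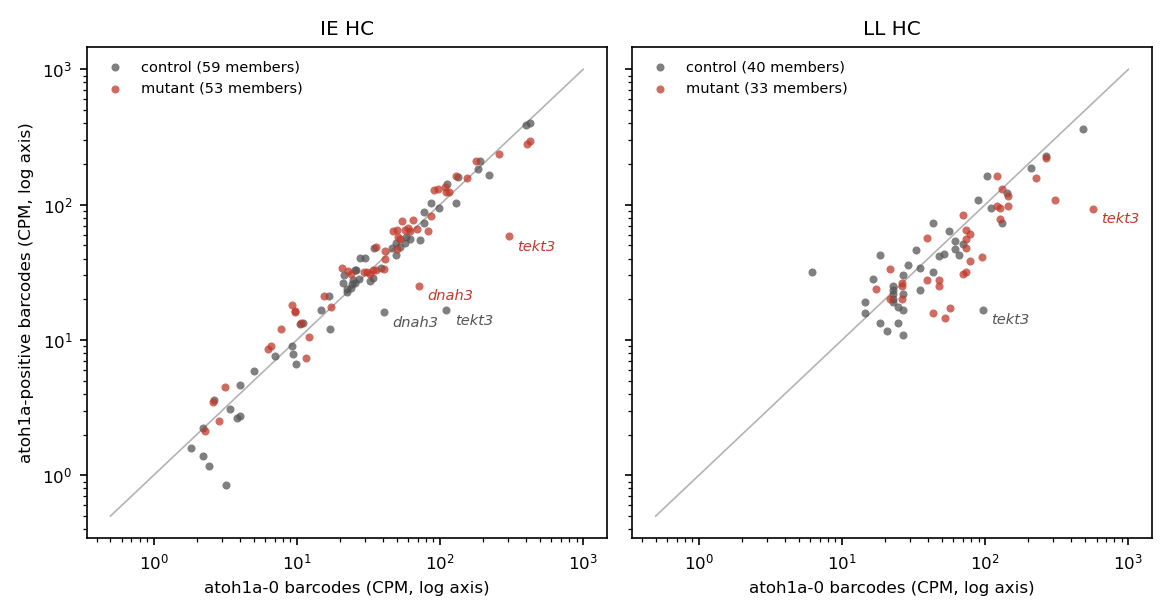
Level of each axoneme gene in *atoh1a*-0 (horizontal) and *atoh1a*-positive (vertical) HCs, in CPM on log axes, in IEHCs (left) and LLHCs (right), for members with at least 20 UMIs over both parts and above 0 in each, with grey points for the control and red points for the mutant library. In the IEHC panel *tekt3* lies farthest below the line of equal levels, at 111 against 16.7 CPM in control and 303 against 58.2 CPM in mutant IEHCs.

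Genes that work with the axoneme were read from lists of their own. Of 63 tested genes for other axoneme and dynein assembly proteins, such as the central pair gene *hydin*, the nexin-dynein gene *gas8* and the assembly factors *zmynd10* and *lrrc6*, 56 were higher in IEHCs and 49 in LLHCs than in all 3 other classes. *dynlrb2*, a dynein light chain gene, had a log2 difference of 5.70 from SCs, 6.65 from neurons and 4.75 from the rest. Of 23 tested intraflagellar transport genes, which carry material along the cilium, 19 were higher in IEHCs and 15 in LLHCs, *ift88* being at 32.3 and 37.0 CPM in IEHCs and at most 6.23 CPM outside HCs. Of 12 tested genes of the BBSome, a cargo adaptor of cilia, 4 and 2 were higher. The shares of all genes that met this criterion were the 6.41% and 3.21% given above.

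Among 10 tested cilia transcription factors, 5 were higher in IEHCs than in all 3 other classes and 3 in LLHCs. *foxj1a* was at 293 and 305 CPM in IEHCs and 159 and 187 CPM in LLHCs. SCs, neurons and the rest, as whole classes, had 6.87 to 34.0 CPM. In the 232 control rest barcodes selected above for axoneme UMIs and 0 *myo6b* UMIs, *foxj1a* was at 541.5 CPM. *foxj1b* was at 9.81 and 20.8 CPM in IEHCs. *rfx2* was at 159 and 131 CPM in IEHCs and 130 and 144 CPM in LLHCs, with 68.1 and 24.1 CPM in SCs. *rfx3* was higher in IEHCs than in SCs and the rest but not called against neurons, which had 29.5 and 26.8 CPM beside 28.2 and 22.1 CPM in IEHCs. *gmnc*, a gene that starts the multiciliated cell programme, was at 3.13 and 8.45 CPM in IEHCs and at 1 UMI per library in LLHCs. The 7 tested genes of a list of multiciliated cell markers summed to 458 and 612 CPM in IEHCs, with *foxj1a* alone giving 293 and 305 CPM. They summed to 275 and 398 CPM in LLHCs and to at most 64.4 CPM in SCs, neurons and the rest as whole classes. One of them, *capsla*, was at 323 and 1776 CPM in the rest barcodes selected above for axoneme UMIs and 0 *myo6b* UMIs.

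The mutant library is 1 library and the control 1 library, so their ratio has no replicate check and no p-value, and the genotype cannot be told apart from the library, its depth or the Cell Ranger version. Log2 ratios of mutant over control CPM are given with counting intervals for members with at least 20 UMIs over both libraries. In IEHCs the 59 such members had a median of 0.18, beside -0.19 for all 18773 genes, and in LLHCs 44 members had a median of 0.24, beside -0.16 for all 10269 genes. In IEHCs 2 members were at least 2-fold higher, beside 5.88% of all genes, and 4 at least 2-fold lower, beside 22.8%. In LLHCs 4 were at least 2-fold higher, beside 9.39%, and 1 lower, beside 21.9%. In SCs the median of the members was -1.01 (all genes -0.33), in neurons -0.39 (-0.21), and in the rest 0.39 (0.11).

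The tektins stood on the higher side in both HC classes. *tekt3* rose from 49.2 to 135 CPM in IEHCs, a log2 ratio of 1.46 (1.33 to 1.59), and from 39.8 to 204 CPM in LLHCs, a ratio of 2.35 (1.95 to 2.78). It was also higher in the mutant library within *atoh1a*-positive (16.7 and 58.2 CPM) and *atoh1a*-0 IEHCs (111 and 303 CPM). *tekt1* had ratios of 1.25 (1.12 to 1.39) and 1.23 (0.78 to 1.69), *tekt4* 0.77 and 0.65, and *tekt2* 0.46 and 0.67. Next in IEHCs came *rsph4a* at 0.97 (0.77 to 1.18), *cfap410* at 0.97 (0.55 to 1.39) and *dnal1* (ENSDARG00000034042) at 0.94 (0.78 to 1.1). In LLHCs *RSPH1* had a ratio of 1.19 (0.38 to 2.02) and *rsph3* of 1.02 (-0.26 to 2.32). The ratio of *tekt3* was 1.23 in SCs, 1.13 in neurons and 1.72 in the rest. In the rest *tekt1* had a ratio of 1.17, *tekt2* of 1.02 and *tekt4* of 1.03. In SCs and neurons *tekt1* had -1.16 and -0.04 and *tekt4* -1.09 and -0.14, and *tekt2* had 0.30 in neurons.

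Several of the most abundant heavy chains stood on the lower side in both HC classes. *dnah2* had a log2 ratio of -0.75 (-0.84 to -0.66) in IEHCs and -0.84 (-1.17 to -0.52) in LLHCs, *dnah6* of -0.68 and -1.18, and *dnah5* of -0.29 and -0.64. *cfap57* had -0.67 (-0.74 to -0.60) and -0.78 (-1.0 to -0.56). *dnah9l* went the other way, at 0.80 (0.73 to 0.87) in IEHCs and 0.44 (0.14 to 0.73) in LLHCs. The lower side was not limited to HCs. In SCs, neurons and the rest *dnah2* had ratios of -1.34, -1.21 and -0.43, and *dnah6* of -1.08, -0.96 and -0.38. Those of *cfap57* were -1.97, -1.07 and -0.28. *dnah5* had -0.10, -0.32 and 0.78 in these classes, and *dnah9l* -1.06, -0.21 and 1.94. The 4 lowest ratios in IEHCs belonged to members at 3.27 CPM or less, *dnai2a* at -2.36 (-3.75 to -1.21), *dnah11* (ENSDARG00000094282) at -1.68, *dnah1* at -1.61 and *dnai1.1* at -1.55. In LLHCs the lowest were *dnah6* and *cfap70* at -0.92 (-2.28 to 0.26). *foxj1a* and *rfx2* had 293 and 305 CPM and 159 and 131 CPM in IEHCs of the control and mutant library. Globin UMIs, 21823 CPM in control and 5.45 CPM in mutant IEHCs with *alas2*, moved with the library, and their part in these ratios was not tested.

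**Figure D5:**
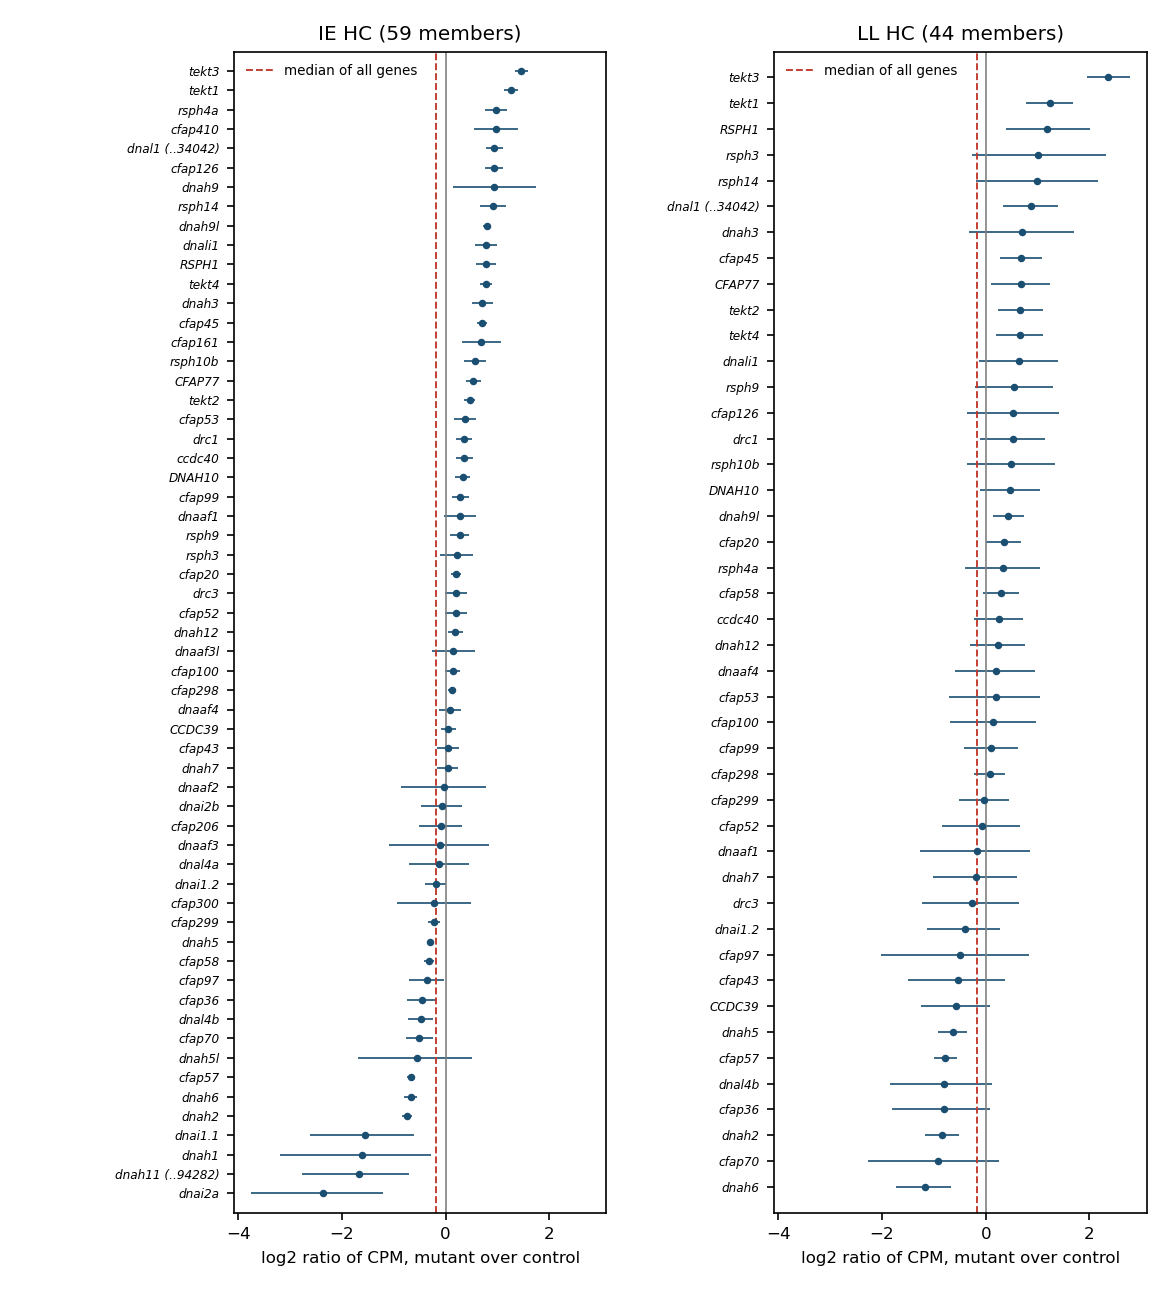
Log2 ratio of mutant over control CPM for each axoneme gene with at least 20 UMIs (points, with 95% counting intervals as bars) in IEHCs (left, 59 members) and LLHCs (right, 44 members); the dashed line is the median of all genes, -0.19 and -0.16. *tekt3* is highest in both panels, at 1.46 and 2.35, and *dnah2*, *dnah6* and *cfap57* lie below 0 in both.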

How the data were processed

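Single-cell RNA-seq libraries (10x Genomics 3′) of cells sorted for mGFP from control and *hsd17b7* mutant larvae were read as deposited. Values are whole UMI counts, which the authors deposited as an unnormalized gene by barcode matrix made with Cell Ranger 7.1.0 (control) and 9.0.1 (mutant) per the file headers, and the submitters' processing notes name GRCz11 and Seurat. Depth was 180590990 and 81920586 UMIs. Doublets were not removed in the main analysis, and Scrublet scores (scanpy 1.11.5, expected rate 8%) entered only as an alternative, leaving out the highest 5% of each library. Of the HCs, 120 control and 80 mutant barcodes were in that part. Barcodes with at least 500 genes and at most 20% mt- UMIs were gated and their UMIs summed per class and library. The edgeR 4.0.16 quasi-likelihood test (R 4.3.3, TMM, filterByExpr, library as a block, Benjamini-Hochberg over all genes) was fitted to 10 sums for the classes (4 residual degrees of freedom) and to 14 sums for the *atoh1a* split (6). SE is the log2 difference over the root of F. DESeq2 1.42.0 was an alternative, and its missing adjusted p-values were left missing. Ratios between libraries used genes with at least 20 UMIs and exact 95% intervals, and 0 UMIs were read as up to 3. The functions were tested on simulated data. The members and lists were chosen with earlier results of these data known. Named members are the 12 highest mean levels in each HC class, called differences, the 5 (LLHCs 3) highest and lowest library ratios, the members below 1 CPM in HCs and, as examples chosen after their values were seen, others of each family. No sequence or coordinate is given.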

Additional observations from a re-analysis of the deposited data

How the results depend on the processing

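The counts of 51 members called in IEHCs and 43 in LLHCs ranged from 47 to 52 and from 33 to 45 over the alternatives, which covered normalization, filter, test, gates, doublet scores, depth, mitochondrial share and the block, with the lowest of both without the library block. The shares of 6.41% and 3.21% of all genes belong to the main setting, and those of the alternatives are not given. Leaving out the library as replicate block left 0 members lower in IEHCs than in the rest and 0 lower in *atoh1a*-positive IEHCs. No leave-one-out test was possible, because 1 library leaves no residual degrees of freedom; the log2 ratio of summed members from IEHCs to SCs ran from 3.06 (control alone) to 3.96 (mutant alone). The 1 member lower in LLHCs than in the rest became 0 with either stricter *myo6b* gate, 3 *elavl3* UMIs, no barcodes of several gates, thinning, class totals, no low-count filter, DESeq2 or no block. Thinning to 4000 UMIs left 2 members lower in IEHCs than in the rest, as did class totals. Without the highest Scrublet scores 0 members were called lower in *atoh1a*-positive IEHCs, with *tekt3* at -2.60 ± 0.52 in place of -2.50 ± 0.34. Setting *atoh1a*-positive at 2 UMIs called 1 member in LLHCs, *tekt3*. The gate of 5 *myo6b* UMIs and DESeq2 each called 1 member higher in IEHCs than in LLHCs. The library ratios in IEHCs moved with centring on the median gene (median 0.38, 8 members at least 2-fold higher) and with thinning (5 higher, 0 lower). In LLHCs the median was 0.41 with centring, 0.42 without the highest Scrublet scores, 0.055 without barcodes of several gates and 0.12 at 5 *myo6b* UMIs. The number at least 2-fold higher in LLHCs was 2 with thinning and 11 without the highest Scrublet scores, and the number at least 2-fold lower was 2 and 0 in these, 4 without barcodes of several gates and 2 at 5 *myo6b* UMIs. The shares of all genes at least 2-fold higher or lower are not given for these alternatives, so these member counts have no reference. LLHCs rest on 101 and 65 barcodes. No alternative reversed a direction that had been called.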

Other observations

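Barcodes with at least 3 *myo6b* UMIs but equal or no *lhfpl5a* and *lhfpl5b* UMIs, 467 (control) and 347 (mutant) in number, belonged to no HC class. Their axoneme genes summed to 840 and 1098 CPM, between the rest and the LLHCs, at a median depth of 12163 and 9179 UMIs. They held 97.8 and 91.5 CPM of *foxj1a* and 385 and 504 CPM of *myo6b*, and 18 members reached 10 CPM in both libraries, against 44 in IEHCs.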
